A study of Rattus norvegicus with 16 samples.

Results

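Of the 1526 genes annotated as snRNA or scaRNA in the deposited expression table of 32883 rat genes, 115 had a mean of at least 3 FPKM over the 6 input libraries, and these are the spliceosomal and Cajal body small RNA genes described here. FPKM counts sequenced fragments relative to gene length and to a scale set for each library, which here differed from the library's total of fragments. The 115 members were 101 of 1475 snRNA genes and 14 of 51 scaRNA genes. They carried 19 Rfam family names, 8 of snRNAs and 11 of scaRNAs. They were chosen by their mean FPKM over both groups, so their detection and level are a description and not a result. Another 957 snRNA and scaRNA genes had no fragment in any of the 6 libraries.

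NAT10 acetylates cytidines of RNA to N4-acetylcytidine (ac4C), and the study lowered it in the muscle cells of arteries to ask for its role there. Primary aortic smooth muscle cells of the rat were grown in medium with 20% serum and carried an adenovirus for 48 h. In the knockdown group (genotype label NAT10 knockdown) the virus held a short hairpin RNA against NAT10, and in the control group (genotype label wild type) it was a control adenovirus, so both groups were infected. Input RNA was sequenced from 3 knockdown and 3 control libraries. RNA fragments of 100 to 200 nt were immunoprecipitated with an antibody against ac4C from 3 knockdown and 3 control libraries, and RNA bound to NAT10 was immunoprecipitated from 3 libraries of cells labelled wild type with no treatment. The labels tie no library to an animal or a culture. The spread behind each p-value is that between libraries, and it may be technical.

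The spliceosomal snRNAs U1, U2, U4, U5 and U6 are the RNA core of the machine that removes introns from pre-mRNA. U1 and U2 recognise the start and the branch point of an intron, and U4, U5 and U6 join as a preassembled particle, in which U4 holds U6 inactive until the splicing reaction begins. U4atac and U6atac replace U4 and U6 in the minor spliceosome, which removes a rare class of introns, and U7 directs the cutting of histone pre-mRNA. Small Cajal body RNAs (scaRNAs) are guides that direct pseudouridylation and 2′-O-methylation of the snRNAs in Cajal bodies, nuclear bodies where snRNA particles mature. Most of these RNAs have no poly(A) tail, and mammalian genomes hold many near-identical copies of U1, U2 and U6, most of them pseudogenes. Reads of such copies can be split between genes in counting, so values of single U1, U2, U4, U5 and U6 genes are uncertain.

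The libraries held 6418210, 7106292 and 7468625 recovered fragments in the knockdown group and 12066151, 8171278 and 8623647 in the control group. Nat10 itself stood at 4.38, 3.68 and 4.58 FPKM in knockdown cells, against 7.69, 9.22 and 9.95 FPKM in control cells. The groups did not overlap. The log2 change, knockdown over control, was -0.93 with an adjusted p of 0.227 in limma with Benjamini-Hochberg adjustment. Of 6 smooth muscle markers, all 6 had a negative log2 change and 5 lay lower in every knockdown library. Their summed level ran from 668 to 3271 FPKM in knockdown cells and from 4143 to 5651 FPKM in control cells. The 4 fibroblast markers summed to 183 to 248 FPKM in knockdown cells and 269 to 298 FPKM in control cells. They did not move alike. Pdgfra and Col14a1 were lower in every knockdown library, whereas Dcn and Lum overlapped. Lum averaged 122 FPKM in knockdown cells and 124 FPKM in control cells. Cdh5, Vwf and Ptprc, which define endothelial cells and leukocytes, were at or below 0.213 FPKM in every library, and the macrophage gene Cd68 stood at 7.60, 9.67 and 3.74 FPKM in knockdown cells and 2.87, 3.30 and 4.57 FPKM in control cells. The 4 genes found of this endothelial and leukocyte list summed to 3.82 to 9.95 FPKM in knockdown cells and 2.99 to 4.64 FPKM in control cells. The part of these markers in the results was not tested, and fewer cells of a type and less RNA per cell cannot be told apart in these bulk libraries.

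Coverage of the members was thin. Together they held 3064, 4124 and 3750 fragments in the knockdown libraries and 3191, 2244 and 3305 fragments in the control libraries. A member had 5 to 4782 fragments over the 6 libraries, with a median of 36. Only 23 members reached 100 fragments, 45 had fewer than 30, and 26 were at 0 in at least 1 library. The 12 members with the most fragments held 74.4% of all member fragments. A single fragment in a U6 gene of 107 nt was worth 1.14 to 1.35 FPKM in the knockdown libraries and 0.812 to 1.196 FPKM in the control libraries, so 3 FPKM is only a few fragments per library. Just inside that level lay ENSRNOG00000060845 (RF00026) at 3.05 FPKM with 16 fragments, ENSRNOG00000058927 (RF00026) at 3.09 FPKM with 5 fragments, and ENSRNOG00000052561 (RF00004) at 3.16 FPKM with 29 fragments. The shortest length used for an RF00026 member was 33 nt, against a median of 106 nt. Where no length was listed the smallest that fits was taken, so the lowest counts, 5 included, may be a whole multiple higher. Just outside lay ENSRNOG00000056232 (RF00026) at 2.97 FPKM with 16 fragments, ENSRNOG00000060452 (RF00015) at 2.98 FPKM with 20, and ENSRNOG00000052381 (RF00066) at 2.99 FPKM with 9.

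**Figure D1:**
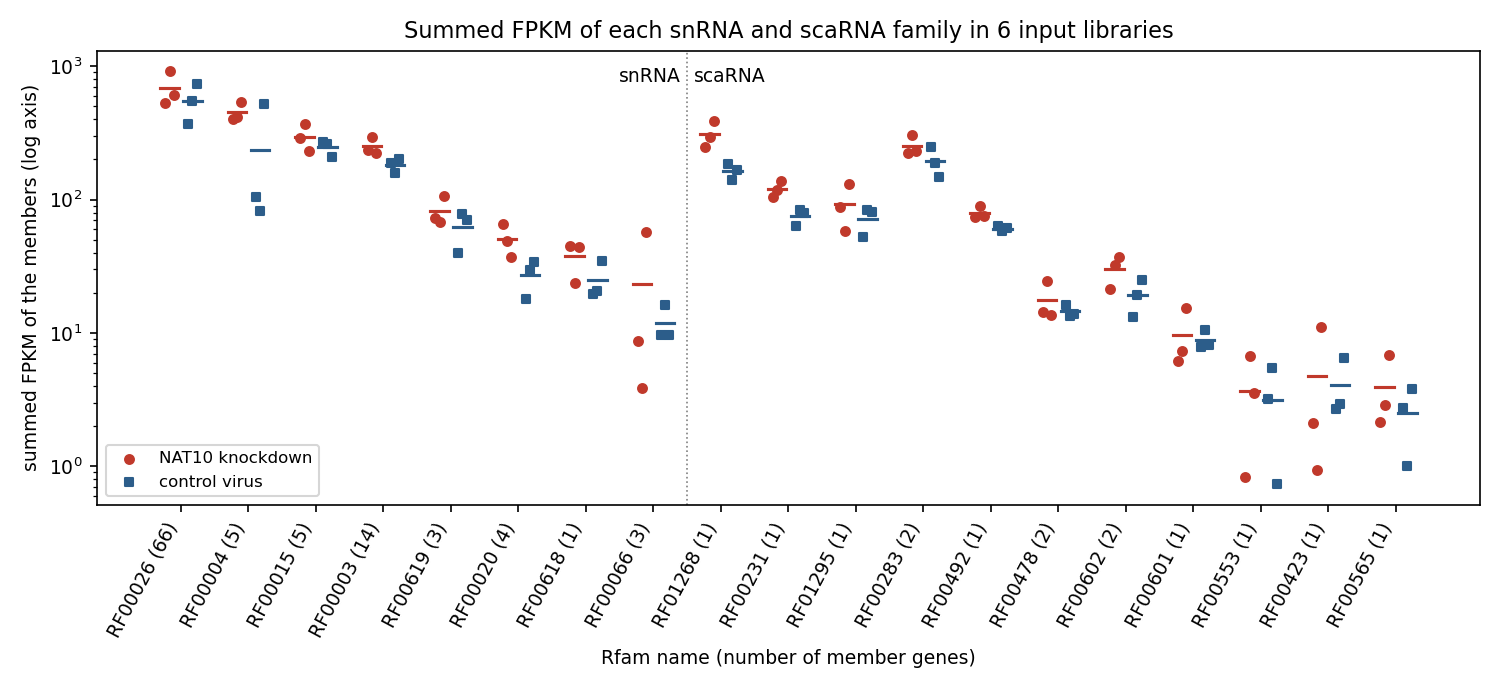
Summed FPKM of the member genes of each Rfam family (log axis) in the 3 NAT10 knockdown libraries (red circles) and the 3 control libraries (blue squares), with a bar at each group mean and the number of members in brackets. All 19 family means were higher in the knockdown libraries, and 6536 of all 13450 genes tested had a positive log2 change. The libraries of the 2 groups were separate in 5 families, against 9.63% of single genes tested that were separate and higher. Of these families, U1 (RF00003) and U5 (RF00020) overlap once single genes are left out. RF00004 (U2) was high in 1 control library and low in the others. The sums include 26 members with a control mean under 3 FPKM and 8 with a knockdown mean under it, so nothing is read from these counts.

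Of the snRNAs of the major spliceosome, the U6 family (RF00026) had the most genes, 66 members of 919 genes in the table. Its members summed to 533, 914 and 607 FPKM in knockdown cells, against 366, 548 and 738 FPKM in control cells. The groups overlapped, and the knockdown mean was 1.24 times the control mean. Individually, U6 members rested on 30 fragments at the median, and 5 of the 66 had 100 or more. The U6 gene with the most fragments, ENSRNOG00000056502, stood at 37.0, 88.1 and 62.3 FPKM in knockdown cells and 36.6, 57.4 and 54.1 FPKM in control cells. Knockdown library 2 was highest and the groups overlapped, with a log2 change of 0.28 ± 0.34 (SE).

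The U1 family (RF00003) had 14 members of 220 genes and summed to 234, 296 and 222 FPKM in knockdown cells, against 187, 158 and 202 FPKM in control cells. All 3 knockdown libraries lay above the 3 control libraries, by a mean ratio of 1.38. This order rested on single genes. Without ENSRNOG00000056523, which was almost entirely in knockdown library 3, the sums were 233, 296 and 185 FPKM in knockdown cells and 187, 158 and 202 FPKM in control cells, which overlap, and the groups also overlapped without either of the 2 genes that follow. ENSRNOG00000055311, on the minus strand of chromosome 11 at positions 83848438 to 83848601, had 59.98, 70.2 and 86.6 FPKM in knockdown cells and 42.9, 71.0 and 100.0 FPKM in control cells. ENSRNOG00000059367 had 62.5, 98.6 and 13.3 FPKM in knockdown cells and 63.1, 7.02 and 12.5 FPKM in control cells. Knockdown libraries 1 and 2 and control library 1 were high for this gene and the rest were low, and the log2 change was 1.23 ± 0.94 (SE).

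The U2 family (RF00004) had 5 members of 86 genes, and 83.7% of its fragments fell on 1 gene. That gene, ENSRNOG00000054769, stood at 279, 315 and 493 FPKM in knockdown cells, against 8.19, 18.8 and 466 FPKM in control cells. In fragments these were 390, 491 and 649 in the knockdown libraries and 18, 28 and 738 in the control libraries. All 3 knockdown libraries and control library 3 were high, and control libraries 1 and 2 were low. The groups overlapped, and the log2 change was 3.0 ± 1.33 (SE), with limma's adjusted p at 0.416. Leaving out control library 3 gave a log2 change of 4.71 and an adjusted p of 0.0965, and leaving out control library 1 gave 1.87, so its size moved with single control libraries. Over all alternatives its adjusted p ran from 0.0965 to 0.831. ENSRNOG00000054047 had 109, 80.7 and 35.8 FPKM in knockdown cells and 71.6, 42.2 and 44.0 FPKM in control cells, with the groups overlapping.

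The U4 family (RF00015) had 5 members of 115 genes, and ENSRNOG00000052742 held 89.6% of their fragments. It stood at 231, 345 and 220.0 FPKM in knockdown cells and 242, 239 and 180 FPKM in control cells. Knockdown library 2 was highest and the groups overlapped, with a log2 change of 0.25 ± 0.25 (SE). The U5 family (RF00020) had 4 members of 13 genes and summed to 65.8, 48.5 and 37.4 FPKM in knockdown cells, against 17.9, 29.7 and 34.2 FPKM in control cells. Every knockdown library lay above every control library, by a mean ratio of 1.85, on 216 fragments in all. Without ENSRNOG00000059280 the sums were 49.3, 30.6 and 26.1 FPKM in knockdown cells and 16.4, 25.3 and 27.9 FPKM in control cells, and the groups overlapped, as they did without ENSRNOG00000059272.

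The minor spliceosome was represented by U6atac (RF00619, 3 members of 23 genes) and U4atac (RF00618, its only gene). The U6atac gene ENSRNOG00000055021 had 64.0, 52.5 and 95.5 FPKM in knockdown cells and 33.1, 51.8 and 58.4 FPKM in control cells. U4atac, ENSRNOG00000057270, had 44.8, 23.5 and 44.1 FPKM in knockdown cells and 19.5, 20.5 and 34.7 FPKM in control cells. In both genes control library 1 was lowest and the groups overlapped. U11 and U12, the other snRNAs of the minor spliceosome (RF00548 and RF00007), had no gene at 3 FPKM. Their highest gene means were 0.928 and 0.603 FPKM, on 6 and 8 fragments for the whole family, so no change was detectable at this depth. U7 (RF00066) had 3 members of 83 genes with 51 fragments. They summed to 8.67, 3.89 and 57.5 FPKM in knockdown cells and 9.66, 16.2 and 9.57 FPKM in control cells, a difference carried by knockdown library 3.

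The deposited table names the scaRNA genes by Rfam family alone, so they are given by family number. RF01268 (ENSRNOG00000051850) was the most deeply covered member, with 4782 fragments over a length of 416 nt. It stood at 246, 296 and 389 FPKM in knockdown cells, against 185, 139 and 165 FPKM in control cells. All 3 knockdown libraries were higher than all 3 control libraries. The mean was 311 ± 72.6 FPKM in knockdown cells and 163 ± 23.2 FPKM in control cells (SD, n = 3 each). The log2 change of 0.91 ± 0.23 (SE) did not pass the threshold, with limma's adjusted p at 0.279.

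RF00231 (ENSRNOG00000059389) had 105, 117 and 139 FPKM in knockdown cells, against 63.5, 83.3 and 78.9 FPKM in control cells. Its groups were separate as well, with a log2 change of 0.67 ± 0.19 (SE) that did not pass (adjusted p = 0.297, limma). RF00492 (ENSRNOG00000061205) had 74.6, 89.5 and 75.1 FPKM in knockdown cells and 62.9, 58.1 and 60.7 FPKM in control cells. Again all 3 knockdown libraries were above the control libraries, by a log2 change of 0.39 ± 0.15 (SE) with an adjusted p of 0.385.

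The other well-covered scaRNA genes overlapped. RF01295 (ENSRNOG00000053927) had 88.2, 57.7 and 132 FPKM in knockdown cells and 52.6, 83.4 and 80.4 FPKM in control cells, for a log2 change of 0.30 ± 0.33 (SE). The RF00283 gene ENSRNOG00000051481, only 79 nt long, had 221, 299 and 231 FPKM in knockdown cells and 246, 181 and 145 FPKM in control cells, for a log2 change of 0.41 ± 0.25 (SE). Of the remaining scaRNA families, RF00478, RF00602, RF00601, RF00553, RF00423 and RF00565 had 20 to 216 fragments each. The summed FPKM of each of these families overlapped between the groups. In RF00602 the gene ENSRNOG00000057490 had 20.5, 21.9 and 32.1 FPKM in knockdown cells and 8.69, 17.4 and 17.2 FPKM in control cells, with the groups apart. The other RF00602 gene, ENSRNOG00000056350, overlapped, with a log2 change of 0.03.

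**Figure D2:**
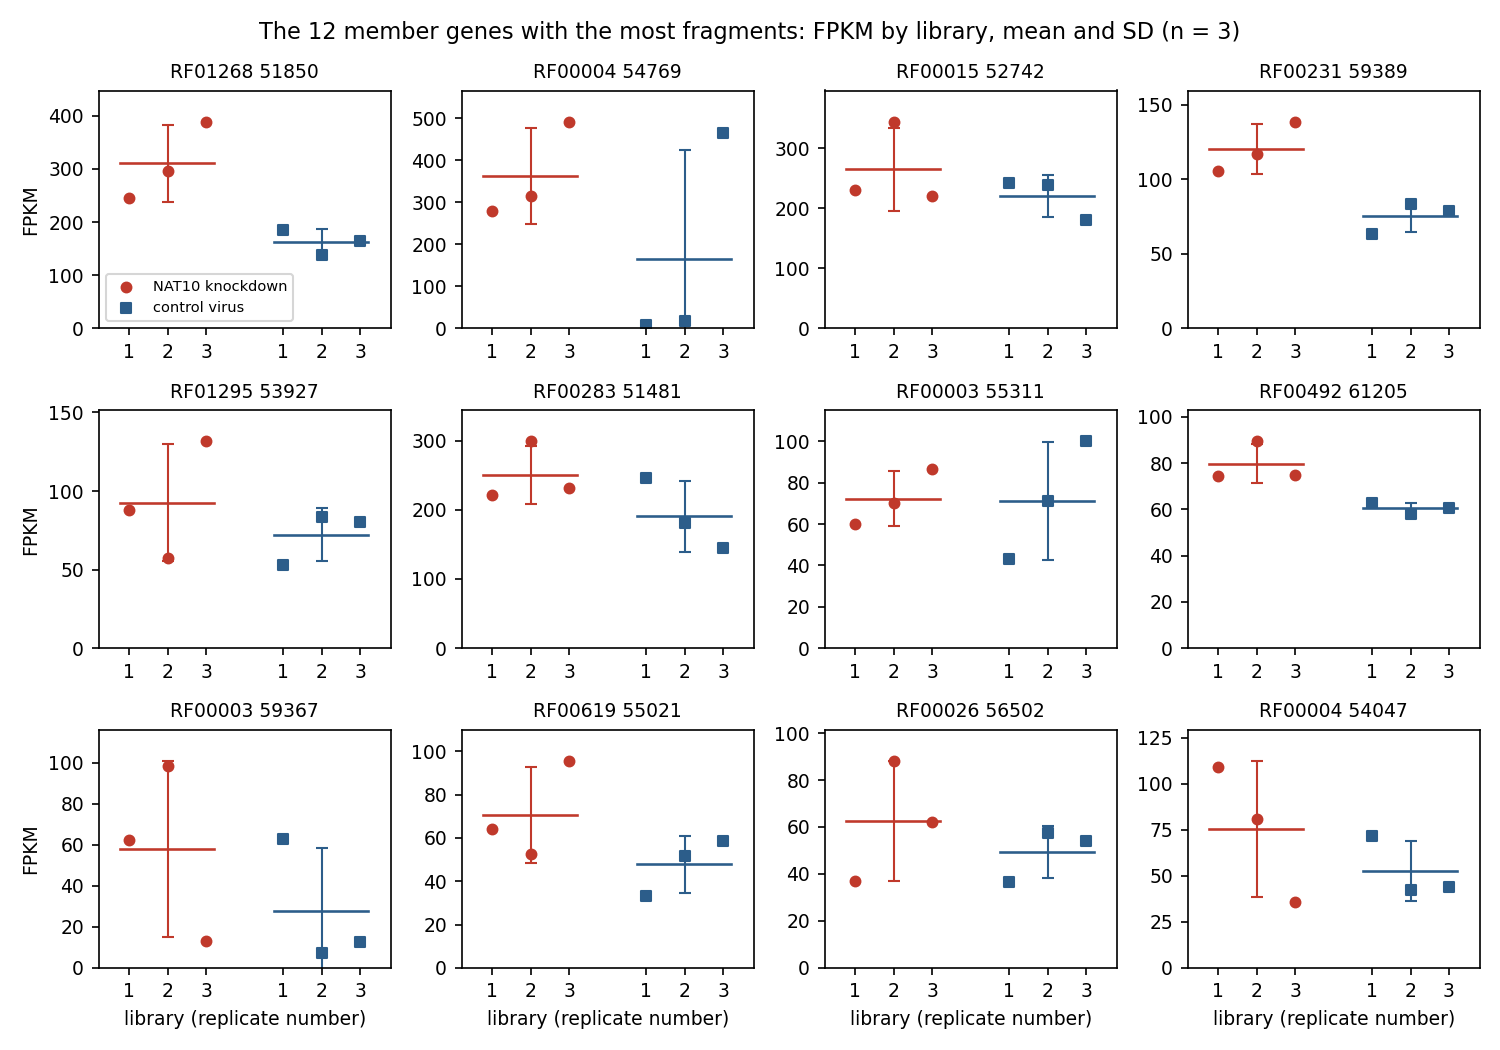
FPKM of the 12 members with the most fragments in each library, with NAT10 knockdown on the left (red circles) and control on the right (blue squares); lines are group means and bars are 1 SD (n = 3), cut off at 0. Panel titles give the family and the last digits of the gene ID. RF01268, RF00231 and RF00492 are separate between groups, whereas the U2 gene with the most fragments (second panel) in control library 3 lies within the range of the knockdown libraries.

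The members as a whole took a larger share of fragments in knockdown cells. The share was 0.0477%, 0.0580% and 0.0502% in knockdown libraries and 0.0264%, 0.0275% and 0.0383% in control libraries. The exact 95% Clopper-Pearson intervals for these shares were 0.0461% to 0.0495%, 0.0563% to 0.0598% and 0.0486% to 0.0518% in knockdown libraries, and 0.0255% to 0.0274%, 0.0263% to 0.0286% and 0.0370% to 0.0397% in control libraries. They cover counting error only, since reads are not independent molecules. The groups were separate, with means of 0.0520% ± 0.0054 in knockdown and 0.0307% ± 0.0066 in control libraries (SD, n = 3 each), and this difference is described without a test. On the deposited FPKM scale the members summed to 2434, 3079 and 2902 FPKM in knockdown libraries. In control libraries they summed to 1672, 1798 and 2412 FPKM. On that scale the groups were only just apart, with a mean ratio of 1.43 against 1.69 for the shares. Without the U2 gene ENSRNOG00000054769 the shares were 0.0417%, 0.0511% and 0.0415% in knockdown libraries and 0.0263%, 0.0271% and 0.0298% in control libraries. The scaRNA members took 0.0224% to 0.0264% in knockdown and 0.0134% to 0.0142% in control libraries. Over the same libraries snoRNA genes took 0.295% to 0.336% of fragments in knockdown and 0.191% to 0.208% in control libraries, and protein-coding genes took 94.6% to 96.5% in knockdown and 97.5% to 97.6% in control libraries. The lincRNA share was 2.00%, 3.63% and 1.72% in knockdown libraries and 1.01%, 0.98% and 1.00% in control libraries, highest in knockdown library 2. The snoRNA and lincRNA shares were thus higher and the protein-coding share lower in the same knockdown libraries, and the part of this in the members' share was not tested. All 1526 snRNA and scaRNA genes, which the 3 FPKM level did not select, took 0.0536%, 0.0650% and 0.0550% in knockdown libraries and 0.0298%, 0.0316% and 0.0426% in control libraries.

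In limma with Benjamini-Hochberg adjustment, none of the 115 members passed an adjusted p of 0.05, and none of the 13450 genes tested did either (0.0%). The lowest adjusted p among members was 0.155. At an unadjusted p under 0.05, 14 members (12.2%) were higher and 2 (1.74%) were lower in knockdown cells, against 744 higher (5.53%) and 935 lower (6.95%) of all tested genes. The rule bears on these counts, since 26 members had a control mean under 3 FPKM and 8 had a knockdown mean under it. Among the 14 higher members 7 had a control mean under 3 FPKM, and among the 2 lower members 1 had a knockdown mean under it, so they were members only through the group where they were high and nothing is read from the counts. The groups did not overlap for 14 members that were higher and 2 that were lower, against 9.63% and 10.9% of all tested genes. These were the same 16 members as by p. The median log2 change was 0.39 over the members, with 83 above 0 and 32 below 0, and -0.01 over all genes tested. Scaling to the total of fragments moved the median of all genes to 0.12 and that of the members to 0.52, so the sizes given here hold for the deposited scaling. Of the 16 members, 12 had fewer than 100 fragments and 3 had over 50% of their summed FPKM in 1 library. Weighting libraries by their estimated quality let 5 members (4 higher, 1 lower) pass, against 120 higher (0.892%) and 215 lower (1.6%) of all genes, and the 5 included the U1, U4 and U6 genes with the lowest p. The voom fit on the recovered fragments gave 8 higher (6.96%) and 1 lower (0.87%) at the same unadjusted level, against 758 (5.64%) and 943 (7.01%) of all genes, so the higher count lay near that of all genes. No member passed after adjustment. With the members of each family summed into 1 row, 18 of 19 families had a positive log2 change in voom, 5 were higher with an unadjusted p under 0.05 and 0 were lower, and none passed after adjustment. Of all 13354 rows of that fit, 49.4% were positive, 760 (5.69%) were higher and 940 (7.04%) lower at that level. The 5 families were RF01268, RF00231, RF00004 (U2), RF00020 (U5) and RF00003 (U1). As given above, the order of the U1 and U5 sums and most U2 fragments rested on single genes. The sums hold the members that reached 3 FPKM only through the group where they were high, so nothing is read from the family counts either.

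**Figure D3:**
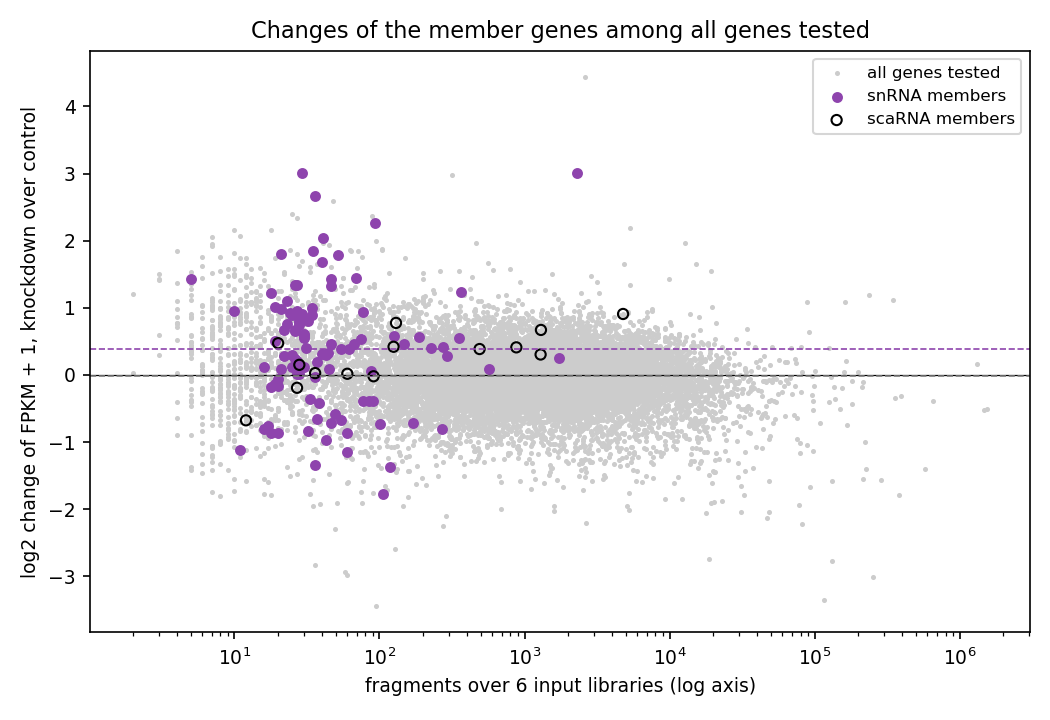
Log2 change of FPKM + 1, knockdown over control, against the fragments over 6 libraries (log axis) for all genes tested (grey), snRNA members (purple) and scaRNA members (open circles). Dashed lines are the medians of all genes (grey) and of members (purple). The members spread most where fragments are few, and no member passes the adjusted threshold.

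The 5 members with the lowest p were mostly thin. Of them, ENSRNOG00000055394 and ENSRNOG00000053164 had control means of 2.08 and 2.93 FPKM. They were members only through the knockdown libraries, so their values are a description and nothing is read from their changes. ENSRNOG00000055394, a U1 gene, had 10.5, 8.64 and 7.43 FPKM in knockdown cells, against 2.23, 2.46 and 1.55 FPKM in control cells, on 40 fragments in all. The groups were separate, with a log2 change of 1.68 ± 0.23 (SE) in limma and 1.95 ± 0.49 (SE) in the voom fit on fragments. ENSRNOG00000060756, a U4 gene, went the other way, with 5.38, 4.82 and 5.71 FPKM in knockdown cells and 11.6, 13.1 and 14.2 FPKM in control cells, on 60 fragments. Its log2 change was -1.15 ± 0.17 (SE) with an adjusted p of 0.186 in limma. In voom it was -1.19 ± 0.42 (SE) with an adjusted p of 0.344. ENSRNOG00000053164, a U6 gene, had 8.54, 7.65 and 10.6 FPKM in knockdown cells and 3.62, 2.67 and 2.51 FPKM in control cells on 27 fragments, for a log2 change of 1.33 and an adjusted p of 0.193. Its SE was 0.21 in limma and 0.51 in voom. For these U1, U4 and U6 genes the SE was thus larger in voom, and the limma SE overstates how precisely they were measured. ENSRNOG00000059280, a U5 gene, had 16.5, 17.9 and 11.2 FPKM in knockdown cells and 1.499, 4.41 and 6.24 FPKM in control cells on 52 fragments. It was higher in all knockdown libraries by a log2 change of 1.79, with an adjusted p of 0.266. The fifth was RF01268, given above.

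Many members were high in 1 library only. In 21 of 115 members, 18.3%, a single library held over 50% of the summed FPKM, against 3.06% of all tested genes. Among the 101 members with at most 200 fragments the share was 20.8%, and among other tested genes with 5 to 200 fragments it was 12.4% (309 of 2499). Leaving out a member's highest library, 27 of the 115 would fall below 3 FPKM, among them 16 of these 21, and 5 of the 21 would stay at or above it. The rule thus admitted the 16 through their highest library, and the other tested genes were not chosen at 3 FPKM. Nothing is therefore read from the excess over those genes. Of the 21, 17 were U6 genes. The library in question was knockdown library 2 for 7 of them, knockdown library 1 for 5, knockdown library 3 for 4, control library 3 for 4 and control library 1 for 1, with control library 2 holding none.

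The U6 gene ENSRNOG00000061717 had 91 of 93 fragments in knockdown library 2. ENSRNOG00000058374, another U6 gene, had 93 of 105 fragments in control library 3. The U4 gene ENSRNOG00000061281 had 44 of 46 fragments in knockdown library 1, and the U1 gene ENSRNOG00000056523 had 40 of 41 in knockdown library 3. The 17 U6 genes together held 101, 285 and 68 fragments in the knockdown libraries and 66, 29 and 224 in the control libraries. The other 49 U6 members summed to 490.0 ± 77.4 FPKM in knockdown cells and 437 ± 109 FPKM in control cells (SD, n = 3 each), a ratio of 1.122 for the means, within the spread.

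**Figure D4:**
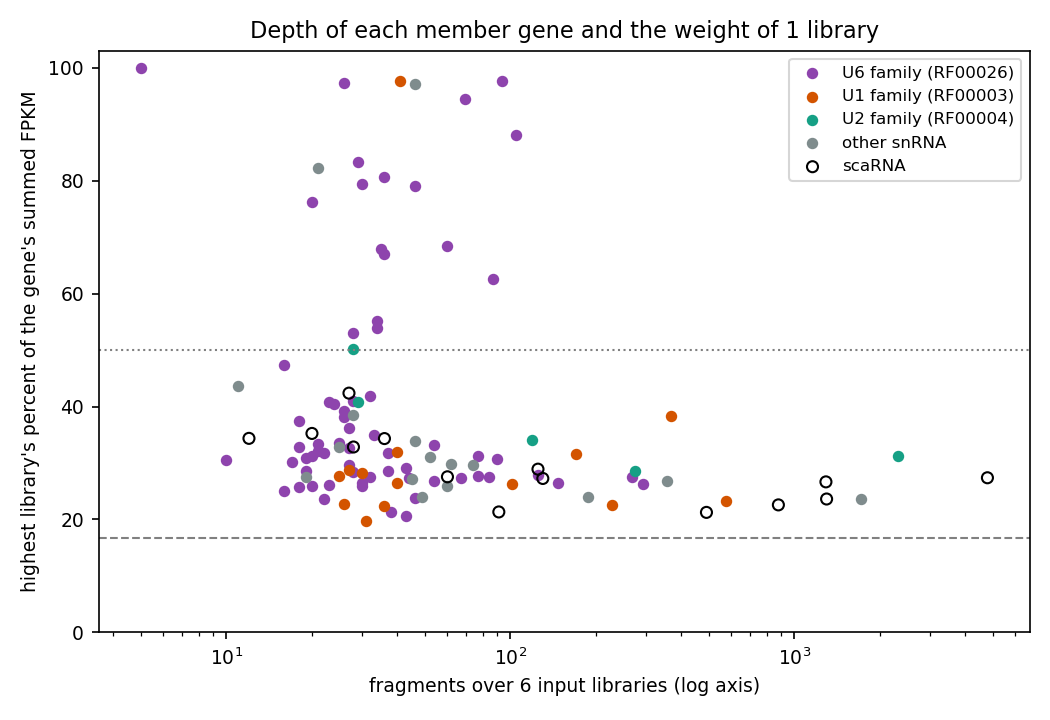
Percent of a member's summed FPKM held by its highest library against its fragments over 6 libraries (log axis), for U6 (purple), U1 (orange), U2 (green), other snRNA (grey) and scaRNA (open circles) members. The dashed line is an equal share in 6 libraries and the dotted line is 50%. Members above 50% all have at most 105 fragments, and no scaRNA is among them.

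Among all genes tested, the one most like each of the 12 deepest members over the 6 libraries was found by Pearson's r of log2(FPKM + 1), given as a description over 6 points that share depth and library scaling. Each r is the highest among all genes tested, so a value near 1 is found for almost any gene. No shared role is read from these pairs. RF01268 was most like Ipo5 (r = 0.995) and the U2 gene ENSRNOG00000054769 most like Igsf6 (r = 0.985). RF01295 was most like Tnfaip1 (r = 0.991), RF00283 like Rnpep (r = 0.991) and RF00492 like Trim27 (r = 0.998). The U6 gene ENSRNOG00000056502 was most like Inip (r = 0.985), and the U2 gene ENSRNOG00000054047 most like another U6 gene, ENSRNOG00000056745 (r = 0.987). The U6atac gene ENSRNOG00000055021 was most like ENSRNOG00000058555 (r = 0.993), named by the Rfam family RF00100 and of misc_RNA type. The U4 gene and both U1 genes were most like protein-coding genes with clone-based names.

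The mRNAs of proteins that form, assemble, modify or transcribe these RNAs and particles were measured in the same input libraries, in 11 lists with 104 genes tested. None passed an adjusted p of 0.05, 67 had a positive log2 change and 37 a negative one, and the median was 0.10. Of all 13450 genes tested, 6536 had a positive log2 change. At an unadjusted p under 0.05, 7 of the 104 were higher (6.73%) and 3 lower (2.88%), against 5.53% and 6.95% of all tested genes. The knockdown target Nat10 was 1 of the 3 lower genes. The 2 genes named from each list are those with its lowest p, and values in parentheses or after "at" in the lists that follow are log2 changes. In the tri-snRNP list, 12 of 15 genes were positive. Snrnp200, the helicase that unwinds U4 from U6, had 37.7, 43.0 and 37.7 FPKM in knockdown cells and 25.1, 28.2 and 27.8 FPKM in control cells, and Prpf4 averaged 11.1 ± 2.26 FPKM in knockdown cells and 7.39 ± 0.69 FPKM in control cells (SD, n = 3 each). In the assembly and Cajal body list, 14 of 18 were positive. Gemin6, a subunit of the SMN complex that loads Sm proteins onto snRNAs, had 12.2, 10.02 and 11.99 FPKM in knockdown cells and 7.19, 5.65 and 4.43 FPKM in control cells, with a log2 change of 0.89 (adjusted p = 0.266, limma). Gemin5, the subunit that binds snRNA, averaged 15.2 ± 2.35 FPKM in knockdown cells and 10.4 ± 0.54 FPKM in control cells.

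The U2 list had 5 positive and 7 negative log2 changes of 12 tested, with Sf3a1 positive (0.47) and Sf3b5 negative (-0.49). The Sm ring list, whose proteins wrap the snRNAs, had 4 of 7 positive, with Snrpb (0.21) and Snrpd2 (0.16). The LSm ring of U6 had 4 of 6 positive, with Lsm2 (0.40) and Lsm3 (0.40). Of 3 U1 proteins, Snrpc was at 0.50 and Snrnp70 at -0.33. The minor spliceosome list had 4 of 8 positive, with Rnpc3 (0.26) and Snrnp25 (0.27). In the list of snoRNP and scaRNP core proteins, Nop58 stood at 0.40 and Fbl, the 2′-O-methyltransferase, at 0.10, with 4 of 6 positive. Among transcription and 3′-processing genes, 15 of 21 were positive, and Snapc1 was at 0.67 and Zc3h8 at -0.46. Snapc1 had 7.90, 16.9 and 6.08 FPKM in knockdown cells and 6.16, 5.37 and 5.20 FPKM in control cells. Its groups overlapped and knockdown library 2 was highest. Among U6 maturation enzymes, 3 of 5 were positive, with Mettl16, which methylates U6, at 0.59 and Tut1, which adds uridines to its end, at 0.53. Among snRNA modifiers, all 3 tested were negative. Nat10 is in this list as the target of the knockdown, so its fall was set by the design. Pcif1 was at -0.18, and only Nat10 of this list had an unadjusted p under 0.05 in limma.

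In the ac4C peak lists, 5, 2 and 3 peaks in knockdown libraries and 48, 51 and 4 in control libraries fell in members. Control lists 1 and 2 held 26881 and 27673 peaks at a single shared p-value each (0.045 and 0.046), and 44 and 46 of their member peaks were of this kind. Without that block, control lists had 4, 5 and 4 member peaks, near the 5, 2 and 3 of the knockdown lists. All told, 10 members, 8.70%, had a peak outside the block in any list, against 47.6% of all tested genes. None of the 66 U6 members had one. A U6 gene below 3 FPKM, ENSRNOG00000054895, had a peak in control list 3 and in knockdown list 2. The depth of these libraries is unknown, and no difference between groups was tested.

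Such a peak was present in all 6 lists for 2 members (1.74%), against 281 of all tested genes (2.09%). The U2 gene ENSRNOG00000054769, on the minus strand of chromosome 10 at positions 89562040 to 89562230, had the authors' peak p of 2.5e-32, 1.3e-28 and 1.7e-08 in knockdown lists and 2e-66, 3.2e-57 and 2e-57 in control lists. All 3 knockdown p-values were larger than the control p-values. Its input was low in control libraries 1 and 2, as given above, and the part of input level and depth in these p-values was not tested. The U1 gene ENSRNOG00000056342, on the plus strand of chromosome 2 within positions 236773940 to 236774103, had 0.0011, 2.5e-11 and 3e-05 in knockdown lists and 1e-09, 1.2e-08 and 2.6e-07 in control lists. Its input level was 33.3, 39.6 and 0 FPKM in knockdown cells and 14.3, 19.5 and 18.4 FPKM in control cells, so its peak in knockdown list 3 stood against an input listed at 0.

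The U5 gene ENSRNOG00000059280, on the plus strand of chromosome 5 at positions 136071225 to 136071340, had a peak in all 3 control lists, at p of 3.9e-06, 0.00023 and 4e-16, and in no knockdown list. In input, this gene was higher in knockdown libraries, as given above. Another U5 gene on the plus strand of chromosome 5, ENSRNOG00000061093, lay below 3 FPKM and is not a member. It had peaks in control lists 1 (4.7e-05) and 3 (7.1e-07) and in knockdown list 2 (0.0095). Reads of such copies can be split between genes, so no loss of ac4C from U5 is read from ENSRNOG00000059280 alone. The U4 gene ENSRNOG00000052742, on chromosome 12, had peaks in control lists 2 (0.0016) and 3 (0.037). Other U4 genes below 3 FPKM had peaks in knockdown lists. ENSRNOG00000051966, also on chromosome 12, had them in all 3 control lists and knockdown list 2, and ENSRNOG00000057067 in knockdown lists 2 and 3. No loss of ac4C from U4 is therefore read either. RF01295 had a strong peak in control list 1 alone (2e-58). RF00602, gene ENSRNOG00000057490, had 1 in control list 2 (0.00012). In knockdown lists alone, U2 genes ENSRNOG00000052561 (0.00021) and ENSRNOG00000057627 (0.0013) and the U5 gene ENSRNOG00000057562 (0.016) had peaks in list 1, and the U1 gene ENSRNOG00000055105 (1.1e-05) in list 3. The p-values are the authors' own and may be raw or adjusted.

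**Figure D5:**
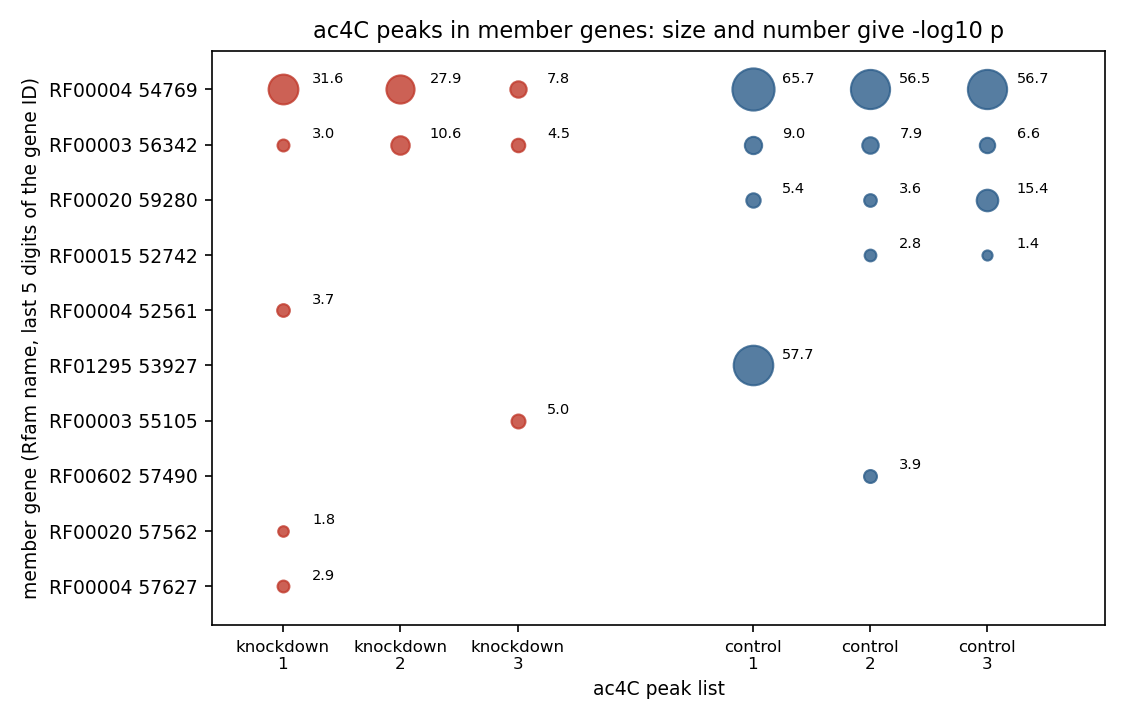
ac4C peaks outside the shared p-value, in 10 member genes and the 3 knockdown (red, left) and 3 control (blue, right) lists; dot area and printed number give -log10 of the authors' p. The U2 and U1 genes on the top lines have a peak in every list, and the U5 gene below them has one in the control lists alone. Another U5 gene, below 3 FPKM and not shown, has peaks in lists of both groups.

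NAT10-bound RNA gave 2268, 1993 and 1773 peaks in its 3 lists, and none lay in a member or in any other snRNA or scaRNA gene. The peaks fell in 586, 563 and 548 genes, against 13450 genes tested in input, so most genes of any kind had none. The absence from these short and thinly covered genes is therefore not read as a lack of binding.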

How the data were processed

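The members, gene lists and tests were chosen with earlier results of these data known. Per the file headers and values, the authors deposited 1 table of FPKM per gene for the 6 input libraries, ac4C peak lists with a p-value per peak, and NAT10 RIP peak lists with a log2 fold enrichment and a p-value; whether these are raw or adjusted is not stated. Tools listed in the submitters' processing notes are HISAT2 2.1.0, cutadapt 2.5, HOMER 4.10.4, DESeq2 and featureCounts 1.6.3; the builds listed are rn6, GRCm38 and GRCh38, with no step assigned. The labels name a stranded mRNA library kit for the input and do not say how multi-mapped reads were counted. Coordinates are as deposited, with 1 added to each start.

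FPKM values held whole fragments (relative tolerance 2e-08, absolute tolerance 1e-06) for 21401 of 21401 genes above 0, with lengths searched from 20 to 130000 nt; 1 of 500 genes with altered decimals also passed. The listed length of a gene in control lists 1 and 2 was used where there was one (55 of 115 members); otherwise the smallest length was taken, so a thin gene may hold a whole multiple of its fragments. The scaling of each deposited library equalled a size factor by median of ratios (100% of the mean ratio in all 6), and differed from its total.

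limma 3.58.1 (R 4.3.3) with a trend was fitted to log2(FPKM + 1) for 13450 genes with mean FPKM of at least 1, two-sided, with Benjamini-Hochberg adjustment at 0.05; the scale understates changes of low genes. The voom fits in limma took library sizes from those size factors. Named members were the 12 with the most fragments, the 5 with the lowest p, 3 on each side of 3 FPKM, those with a peak outside the shared p-value, and 2 genes per protein list. The gene most like RF00231 is not reported here. The non-IP library was not analysed here. The test was tried on simulated data.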

Additional observations from a re-analysis of the deposited data

How the results depend on the processing

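With every alternative but library quality weights, 0 members passed the adjusted threshold. With library quality weights, 5 members, 335 of all genes and 2 protein genes passed; the weights ran from 0.236 (knockdown library 2) to 3.80 (control library 2). Leaving out each library gave 0 to 0 members, 0 to 1 of all genes and 0 to 0 protein genes. The share of fragments in members differed by 0.0212 percentage points, knockdown minus control, and by 0.0182 to 0.0250 with 1 library left out. The mean number of ac4C peaks in member genes per control list fell to 4.33 without the shared p-value, against 34.3 with it, and ran from 26.0 to 49.5 with 1 control list left out. In knockdown lists it stayed at 3.33, and ran from 2.50 to 4.00. Of 256 refits of 16 named members, 5 reversed, in 2 members: RF00003 ENSRNOG00000055311 with library quality weights (-0.27), without knockdown replicate 3 (-0.05) and without control replicate 1 (-0.24), and RF00026 ENSRNOG00000056502 with library quality weights (-0.24) and without knockdown replicate 2 (-0.011); with 1 library left out, these ran from -0.24 to 0.37 and from -0.011 to 0.60. The cause was not tested. The replicate numbers did not pair the samples (correlations of -0.21, -0.28 and 0.18, and 1 of 6 samples nearest to its own number), and the replicate block left 0 members past the threshold. TMM scaling for voom was not run; median-of-ratios library sizes took its place, chosen after seeing the data. Averaging control libraries 2 and 3 was added after seeing the data and gave 0. Fewer than 100 fragments limit the precision of 92 of the 115 members taken singly.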
